A study of Mus musculus with 73 samples.

Results

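Growth factors that could act during regrowth of the lung were examined as a set of 10 genes, Igf1, Vegfa, Vegfb, Hgf, Pdgfa, Pdgfb, Tgfb1, Hbegf, Areg and Grn. The genes were taken by name, and all 10 had a row among the 23994 mouse gene rows of the expression table. The table covers 73 single cells from the right lung lobes of 1 Csf1r-GFP mouse of the B6 strain, aged 10 weeks, 7 days after its left lung had been removed (pneumonectomy). The cells had been sorted as CD45+, CSF1R-GFP+ and F4/80+, and Ly6G is named in the sort without a sign. The GFP reporter marks cells with an active Csf1r gene, which encodes the receptor for CSF1, the cytokine that sustains macrophages. All 73 cells form 1 group from 1 animal, and an unoperated lung was not analysed here, so the values show which cells held a transcript and no effect of the operation. No test was made, because cells of 1 mouse are not replicates of a condition.

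After a pneumonectomy the remaining lobes grow by building new alveoli, capillaries and matrix. Growth factors are secreted or membrane-shed proteins that act on receptors of neighbouring cells. IGF1 and HGF act on epithelial and stromal cells, the VEGF and PDGF proteins on endothelial cells and on pericytes or fibroblasts, HB-EGF and amphiregulin on the EGF receptor, and TGF-beta 1 on almost every cell type. The granulin precursor, progranulin, is both a secreted protein and a lysosomal one. Lung phagocytes are one known source of such factors.

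Levels are FPKM, fragments normalised to transcript length and scaled by a factor that the authors' tools set for each cell. A transcript is called detected at FPKM of 1 or more. Mouse fragments per cell were estimated at 347003 to 3485929, with a median of 1408833, and genes detected per cell ran from 1044 to 3745. Single-cell amplification can miss transcripts, and even Hprt, a gene every cell uses, reached the threshold in 38 of 73 cells. The part of missed transcripts in the zeros was not tested. A value of 0 therefore means that a gene is listed at 0, not that it was off.

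The cells fell into 5 clusters when grouped by 59 marker genes of lung phagocytes, none of which is a growth factor of the set. A cluster of 12 cells, with Ear2, Plet1, Atp6v0d2 and Car4 among its leading 10 genes, is called alveolar-macrophage-like. A cluster of 10 cells was led by H2-Aa, H2-Ab1, C1qb and C1qa, with 4 class II and 4 interstitial macrophage markers among its leading 10 genes, and is called the C1q/class II cluster. Another 10 cells combined class II genes with Ms4a4c and Plac8 and are called the Plac8/class II cluster. Ace, Treml4 and Pglyrp1 led 8 cells, called non-classical-monocyte-like, and Ly6c2, Plac8, Ccr2 and Hp led the largest cluster of 33 cells, called classical-monocyte-like. The Plac8/class II cells shared these classical monocyte genes, with Ly6c2 in 9 and Ccr2 and Hp in 10 of 10 cells. The median level of the classical monocyte list, as mean log2(FPKM + 1), was 7.01 in them and 6.86 in the classical-monocyte-like cells. Among the 8 non-classical-monocyte-like cells, cells 2, 38 and 54 also held 3 to 6 of 8 endothelial markers at FPKM of 10 or more, and Egfl7, an endothelial gene, was among the leading genes of the cluster. Cell 48 of the Plac8/class II cluster held the alveolar epithelial genes Sftpc, at FPKM of 464, and Ager. Marker lists of fibroblasts, lymphocytes, mast cells and basophils, platelets and erythroid cells gave 0 cells with 2 markers at that level, and the neutrophil list gave 0 cells with 3. Cells 22, 26, 30, 64 and 83 held 2 of 7 neutrophil markers, from Cxcr2, Mmp8, S100a8 and S100a9. Of these, Cxcr2 was detected in 62 and Mmp8 in 35 of the 73 cells, S100a8 in 7 and S100a9 in 1, while Ngp, Camp and Retnlg of the same list were detected in 0. Median depth was 1057394 mouse fragments in the alveolar-macrophage-like cells, 1718203 in the C1q/class II, 1559505 in the Plac8/class II, 902224 in the non-classical-monocyte-like and 1421352 in the classical-monocyte-like cells. Mouse fragments per spike-in fragment, which move with the RNA content of a cell, had medians of 2.01, 2.08, 1.96, 1.10 and 1.66 in the same order.

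A single member, Grn, was a common transcript, and the other 9 were found in few cells each. Grn was detected in 62 of 73 cells (84.9%, exact 95% interval 74.6 to 92.2, counting error only). Areg was detected in 8 cells and Vegfa in 9. Hgf, Pdgfb and Hbegf were detected in 6 cells each, Igf1 and Vegfb in 4 each, Tgfb1 in 3 and Pdgfa in 2. These 9 genes gave 48 detections, spread over 36 cells, while 37 cells held none of them. The mean FPKM over all cells was 113 for Grn, 17.2 for Hbegf, 8.76 for Areg and 8.61 for Hgf, and it was lowest for Tgfb1 at 0.222. Means of the rare members rest on single cells. The highest cell alone carried 96.5% of the summed FPKM of Pdgfa, 65.7% of Igf1 and 52.3% of Vegfa, against 9.18% for Grn.

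**Figure D1:**
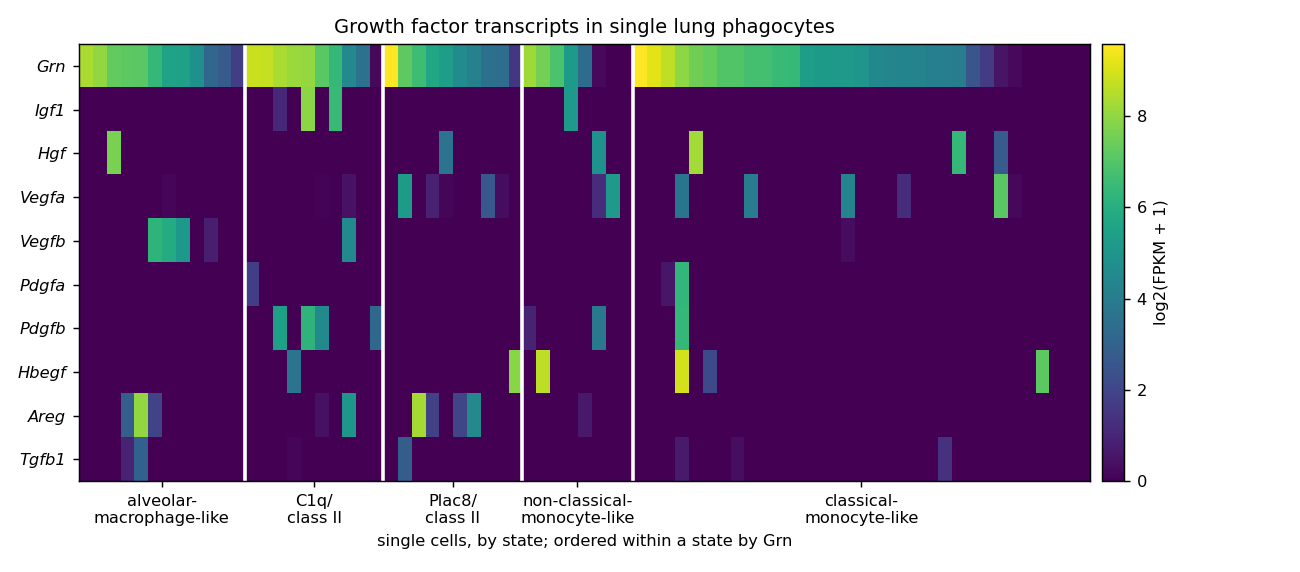
Level of each growth factor on the log2(FPKM + 1) scale (colour) in each of the 73 cells (columns), grouped by state and ordered within a state by Grn. Grn fills most columns in every state, while the other 9 genes appear as isolated cells, with Areg in 4 Plac8/class II cells and 0 classical-monocyte-like cells.

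Grn encodes progranulin, a chain of cysteine-rich granulin repeats that is secreted by macrophages and also sorted to lysosomes through sortilin (Sort1). It was detected in 12 of 12 alveolar-macrophage-like, 9 of 10 C1q/class II, 10 of 10 Plac8/class II, 5 of 8 non-classical-monocyte-like and 26 of 33 classical-monocyte-like cells. In alveolar-macrophage-like cells Grn FPKM ran from 2.42 to 328 with a median of 63.2, and in C1q/class II cells from 0.143 to 449 with a median of 201. In Plac8/class II cells it ran from 1.93 to 760 with a median of 31.8. Non-classical-monocyte-like cells ranged from 0 to 292 with a median of 22.9, and classical-monocyte-like cells from 0 to 757 with a median of 30.6. The ranges overlapped in every state, so neighbours in the order of medians did not separate.

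On the log2(FPKM + 1) scale the mean of Grn was 6.38 ± 2.82 (SD over 10 cells) in the C1q/class II cluster, 5.65 ± 2.15 (12 cells) in alveolar-macrophage-like, 5.17 ± 2.26 (10 cells) in Plac8/class II, 3.94 ± 3.51 (8 cells) in non-classical-monocyte-like and 4.57 ± 2.92 (33 cells) in classical-monocyte-like cells. The differences from the classical-monocyte-like cells were 1.81, 1.08, 0.60 and -0.64 in that order, each smaller than the SD over cells. Without cells 2, 38 and 54 the last difference was 0.63, so its direction rests on the cells with endothelial markers. Within the C1q/class II cluster the level was uneven. The 5 cells with Pf4, the platelet factor 4 chemokine also made by interstitial macrophages, had Grn FPKM of 428 in cell 11, 82.2 in cell 15, 264 in cell 32, 449 in cell 50 and 323 in cell 65. The other 5 cells, without detected Pf4, had 137 in cell 25, 277 in cell 64, 21.5 in cell 84, 10.8 in cell 94 and 0.143 in cell 95. The 5 cells with Pf4 had a mean of 8.07 on the log2 scale, 3.49 above the classical-monocyte-like cells, and the other 5 had 4.70, a difference of 0.12. This division, taken from a cut into 6 clusters, was looked at after the values were known. Median depth was 1408833 mouse fragments in the 5 cells with Pf4 and 2209107 in the other 5. Mgl2, a lectin gene from the dendritic cell marker list, was detected in 1 of the 5 cells with Pf4, cell 32 at FPKM of 939, and in all of the other 5, at 2.61 to 2845. C1qa was detected in 5 and 3 of these cells, and cells 64 and 95 had C1qa, C1qb and C1qc at 0. Cell 50, with the highest Grn of the cluster, had the class II gene H2-Aa at 0. Of the 9 dendritic cell markers, Zbtb46 and Ccr7 were detected in 0 of the 73 cells, and Flt3 in 0 of the 10 C1q/class II cells. Cd209a and Xcr1 were detected in 2 of these 10 cells each, and Clec9a, Itgae and Klrd1 in 1 each. The part of a mixture of cell types in the Grn values was not tested.

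**Figure D2:**
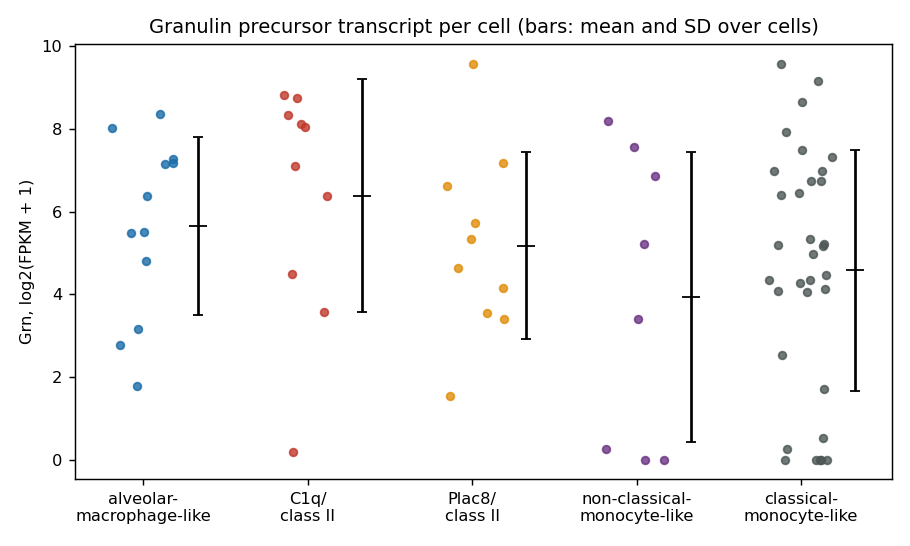
Grn per cell on the log2(FPKM + 1) scale (vertical axis) by state, each point 1 cell, with the mean and SD over cells beside the points. All states overlap, with means from 3.94 to 6.38, and cells listed at 0 occur in the 2 monocyte-like states.

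Across the 73 cells Spearman's rho of Grn was 0.33 with mouse fragments and 0.37 with mouse fragments per spike-in fragment, given as a description of cells that share 1 mouse and 1 table. Among 3958 other genes detected in at least 15 cells, Ptplad2 had the pattern most like that of Grn, with rho of 0.50 over the same cells, which also share their differences in depth. Sort1 was detected in 25 cells, 22 of which held Grn, and 11 of these 25 were alveolar-macrophage-like. Psap, the precursor of the saposins and a partner of progranulin in lysosomal sorting, was detected in 71 cells, of which 61 held Grn. The gene lies on mm10 chromosome 11 from 102430315 to 102437048 on the plus strand, with its end overlapping the oppositely transcribed Fam171a2, which was detected in 0 cells.

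The promoter windows of Grn and Areg are shown because these are the member found most widely and the rare member found in most cells outside the classical-monocyte-like cluster. Each holds 250 bases before and 50 after a RefSeq start site (GRCm38.p6, the assembly named mm10), plus strand, 5′ to 3′, at chr11:102430257-102430556 for Grn and chr5:91139349-91139648 for Areg. Capitals mark matches of 4 searched motifs on either strand, TGACGTCA (the cAMP response element), TATAAA (the TATA box), GGGCGG (the GC box) and CACGTG (an E-box).
Grn: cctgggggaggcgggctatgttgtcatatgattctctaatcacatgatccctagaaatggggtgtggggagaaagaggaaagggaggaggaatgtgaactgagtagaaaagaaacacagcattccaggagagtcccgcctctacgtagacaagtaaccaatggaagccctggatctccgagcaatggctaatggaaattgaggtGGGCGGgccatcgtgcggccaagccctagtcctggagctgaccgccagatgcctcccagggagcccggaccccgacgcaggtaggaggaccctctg
Areg: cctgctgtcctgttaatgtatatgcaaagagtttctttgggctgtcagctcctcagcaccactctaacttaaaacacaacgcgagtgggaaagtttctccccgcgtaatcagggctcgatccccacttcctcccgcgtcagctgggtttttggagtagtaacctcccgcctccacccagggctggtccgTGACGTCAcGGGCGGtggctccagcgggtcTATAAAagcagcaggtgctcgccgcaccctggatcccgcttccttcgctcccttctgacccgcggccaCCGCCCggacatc
The Grn window held 1 GC box and none of the other motifs. The Areg window held TGACGTCA starting 61 bases before the start site, TATAAA starting 31 bases before it, and 2 GC boxes, with no overlap between matches. Among 32851 RefSeq promoter windows of the same length, 1.79% held TGACGTCA, 13.6% TATAAA, 35.7% GGGCGG and 7.15% CACGTG on either strand. Of the 10 members, 8 had 11 windows in the table, and Areg was the only one of these with TGACGTCA or TATAAA. A match is a description of the letters and not a bound site.

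Areg encodes amphiregulin, an EGF receptor ligand released from the cell surface by the protease ADAM17. Its transcript was found in 4 of 10 Plac8/class II cells, 3 of 12 alveolar-macrophage-like cells, 1 of 10 C1q/class II cells, 0 of 8 non-classical-monocyte-like cells and none of the 33 in the classical-monocyte-like cluster. The Plac8/class II cells with Areg were cell 86 with FPKM of 310, cell 48 with 21.7, cell 30 with 2.95 and cell 28 with 2.61. Among alveolar-macrophage-like cells, cell 35 had 260, cell 19 had 6.47 and cell 55 had 2.89, and the C1q/class II cell 84 had 32.2. The values in cells 28, 55 and 30 rest on 8, 5 and 20 fragments, and those in cells 35 and 86 on 930 and 290. Cell 48 is the cell with Sftpc and Ager, and without it Areg was detected in 3 of the 9 remaining Plac8/class II cells. The part of epithelial RNA in that value was not tested. Cell 30 held S100a8 and S100a9 at FPKM of 10 or more, and had C1qa at 48.2, C1qb at 361 and C1qc at 43.4. The part of RNA from another cell in its Areg value was not tested.

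The share in Plac8/class II cells was 40%, with an exact interval of 12.2 to 73.8%, and that in alveolar-macrophage-like cells 25%, with 5.49 to 57.2%. For the count of 0 in classical-monocyte-like cells the limit of 3 cells is 9.09%. These bounds cover counting error within 1 mouse, and the difference between clusters was not tested. At FPKM of 10 or more, Areg was left in 2 of 10 Plac8/class II, 1 of 12 alveolar-macrophage-like, 1 of 10 C1q/class II, 0 of 8 non-classical-monocyte-like and 0 of 33 classical-monocyte-like cells. After every cell was thinned to 347003 fragments, Areg was still detected in 4 Plac8/class II, 3 alveolar-macrophage-like, 1 C1q/class II, 0 non-classical-monocyte-like and 0 classical-monocyte-like cells. The same thinning raised Vegfb from 4 to 5 cells and Pdgfb from 6 to 7, so an unchanged count does not show independence from depth. Mean Areg on the log2(FPKM + 1) scale was 1.66 ± 2.76 (SD over 10 cells) in the Plac8/class II and 1.07 ± 2.39 (12 cells) in the alveolar-macrophage-like cells, and 0 in the classical-monocyte-like cells. Without cell 48 the Plac8/class II difference was 1.35. Ereg, the epiregulin gene and another EGF receptor ligand, was detected in 3 cells, 19, 35 and 55, which are the 3 alveolar-macrophage-like cells with Areg. Its FPKM was 40.6, 18.7 and 25.9 in these cells. Adam17 was detected in 44 cells, among them 6 of the 8 cells with Areg.

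Hbegf encodes heparin-binding EGF-like growth factor, which is likewise shed to act on the EGF receptor. Its 6 cells included some of the highest values of any rare member. FPKM was 389 in the non-classical-monocyte-like cell 83, 233 in the Plac8/class II cell 42 and 11.5 in the C1q/class II cell 64. It was 482 in cell 63, 140 in cell 43 and 3.36 in cell 77, all classical-monocyte-like. Cell 64 had C1qa, C1qb and C1qc at 0. From the neutrophil list, cell 83 held S100a8 and Cxcr2 and cell 64 held S100a8 and Mmp8 at FPKM of 10 or more. The part of RNA from another cell in their Hbegf values was not tested. Among 12 alveolar-macrophage-like cells 0 held it, which allows up to 25%. No cell held Hbegf and Areg together, with 6 and 8 cells in all, which is too few to show that they lie in different cells. The EGF receptor itself, Egfr, was detected in 1 alveolar-macrophage-like cell.

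Igf1 encodes insulin-like growth factor 1, a growth factor that tissue macrophages are known to secrete. Cells with the transcript were 3 of 10 C1q/class II cells and 1 of 8 non-classical-monocyte-like cells, with 0 in the remaining 3 states. FPKM was 241 in cell 32, 89.2 in cell 15 and 1.17 in cell 65, with 3138, 1001 and 25 fragments. These 3 were all among the 5 cells of the cluster with Pf4. The fourth cell, cell 38, had FPKM of 35.5 and is 1 of the 3 cells with endothelial markers. Cell 38 also held C1qb at 488, C1qc at 210 and Apoe at 1214, although it was grouped with the non-classical-monocyte-like cells. C1qa was thus detected in 4 of 4 cells with Igf1, and in 10 of the 73 cells. A count of 0 allows up to 25% of the alveolar-macrophage-like, 30% of the Plac8/class II and 9.09% of the classical-monocyte-like cells. An antisense gene, Igf1os, overlaps the start of Igf1 (chromosome 10, 87858265 to 87937042, plus strand), has no row in the table, and its reads could not be told apart from those of Igf1 without strand.

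Pdgfb, the B chain of platelet-derived growth factor, which draws pericytes to new vessels, was detected in 4 of 10 C1q/class II cells. FPKM was 74.3 in cell 32, 42.7 in cell 65, 22.9 in cell 25 and 8.06 in cell 95. The C1q/class II cells 32 and 65 also held Igf1. Cell 95 had C1qa, C1qb, C1qc and Apoe at 0 and Mgl2 at 2845. It thus lacked the C1q transcripts of the cluster name but held class II, with H2-Aa at 11420. Pdgfb FPKM was 13.1 in the non-classical-monocyte-like cell 54, which has endothelial markers, and 83.03 in cell 63, the only 1 of 33 classical-monocyte-like cells. Endothelial cells are a known source of Pdgfb, and the part of such RNA in cell 54 was not tested. Each of the 4 C1q/class II cells held fewer than 2 of the 8 endothelial markers at FPKM of 10 or more. Pdgfa, the A chain, was detected in the C1q/class II cell 50 at FPKM of 2.38, from 4 fragments, and in the classical-monocyte-like cell 63 at 79.2. Cell 50 had H2-Aa at 0. After thinning, and at FPKM of 10 or more, only cell 63 was left. Annotated antisense genes overlap both Pdgfa and Pdgfb, and without strand their reads could not be told apart.

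Vegfa, the main growth factor of blood vessels, lay in the Plac8/class II and the monocyte-like clusters. Plac8/class II cells 22 and 26 had FPKM of 36.5 and 5.02. The non-classical-monocyte-like cells 2 and 54, both with endothelial markers, had 34.8 and 1.31. The part of endothelial RNA in these last values was not tested. Of 33 classical-monocyte-like cells 5 held it, with FPKM of 139 in cell 20, 18.4 in cell 69, 15.6 in cell 76, 12.07 in cell 63 and 1.37 in cell 1. Alveolar-macrophage-like cells were 0 of 12 and C1q/class II cells 0 of 10, counts that allow shares of up to 25% and 30%. At any value above 0 the number of cells was 16, and then included 1 alveolar-macrophage-like and 2 C1q/class II cells with 1 to 5 fragments each. Hif1a, the oxygen-regulated factor known to induce Vegfa, was detected in 5 of the 9 cells with Vegfa and in 35 of 73 cells.

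Vegfb, a relative of Vegfa that binds the receptor FLT1 and not KDR, had another distribution. Its cells were 3 of 12 alveolar-macrophage-like cells, with FPKM of 74.1 in cell 55, 57.8 in cell 6 and 33.6 in cell 21, and the C1q/class II cell 84 at 22.8. In the classical-monocyte-like cluster 0 of 33 cells reached the threshold. Below the detection threshold, cells 29 and 69 held 2 and 1 fragments. Vegfa and Vegfb were detected together in 0 cells, but with 9 and 4 cells in all this count cannot show that they lie apart. At any value above 0, cells 6, 69 and 84 held both. Their Vegfa rested on 1, 187 and 5 fragments and their Vegfb on 209, 1 and 122.

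Hgf, hepatocyte growth factor, which acts on epithelium through MET, was spread over 4 states. FPKM was 199 in the alveolar-macrophage-like cell 12, 11.4 in the Plac8/class II cell 13 and 29.2 in the non-classical-monocyte-like cell 54. It was 301 in cell 24, 82.1 in cell 14 and 5.70 in cell 20, all classical-monocyte-like. The share was 1 of 12, 0 of 10, 1 of 10, 1 of 8 and 3 of 33 in alveolar-macrophage-like, C1q/class II, Plac8/class II, non-classical-monocyte-like and classical-monocyte-like cells. Met was detected in 8 cells, 6 of them classical-monocyte-like.

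Tgfb1 encodes TGF-beta 1, which is secreted in a latent form and released by integrins or thrombospondin 1. It was the lowest member, with FPKM of 6.76 in the alveolar-macrophage-like cell 35, 5.99 in the Plac8/class II cell 22 and 1.58 in the classical-monocyte-like cell 79, from 45, 15 and 7 fragments. At FPKM of 10 or more it was detected in 0 cells. Its receptors were more common, with Tgfbr1 in 20 and Tgfbr2 in 21 cells. Tgfb1 is known as a general transcript of leukocytes, and its zeros are read beside those of Hprt, which was below the threshold in 35 cells. Hprt itself was uneven over the states. It was detected in 10 of 12 alveolar-macrophage-like, 4 of 10 C1q/class II and 5 of 10 Plac8/class II cells. In non-classical-monocyte-like cells it was detected in 4 of 8, and in classical-monocyte-like cells in 15 of 33.

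**Figure D3:**
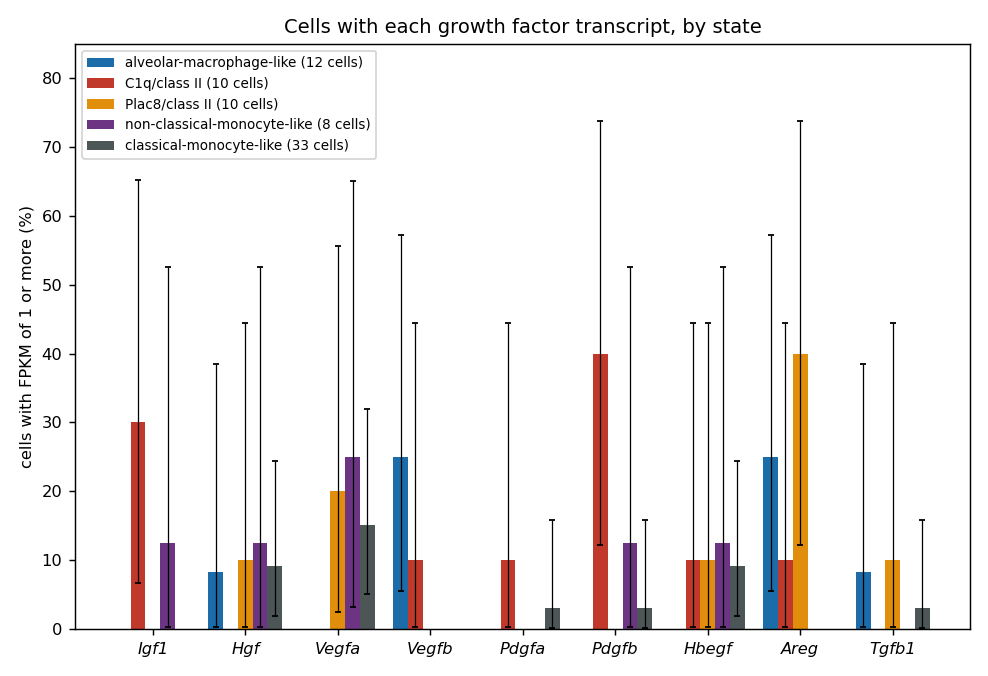
Share of cells with FPKM of 1 or more (vertical axis, percent) for the 9 rarer growth factors in each state, with exact 95% intervals over cells where the share is above 0. Igf1 and Pdgfb reach 30% and 40% in the C1q/class II cluster, Vegfb 25% in alveolar-macrophage-like and Areg 40% in Plac8/class II cells, with wide intervals.

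Across the 40 pairs of a member and a state other than classical-monocyte-like, 7 differed from the classical-monocyte-like cells by 1 or more in mean log2(FPKM + 1), each of them higher in the state named. These were Igf1, Pdgfb and Grn in C1q/class II cells, with differences of 1.55, 1.75 and 1.81, and Vegfb, Areg and Grn in alveolar-macrophage-like cells, with 1.49, 1.07 and 1.08. The last was Areg in Plac8/class II cells, with 1.66. Each difference was smaller than the SD over the cells of its state. Only Vegfa, Areg and Grn were detected in 8 or more cells and so belong to the 6151 genes with a background share. Of these 6151 genes, 19.5% were higher by 1 or more and 11% lower by 1 or more in alveolar-macrophage-like than in classical-monocyte-like cells. The shares were 14.2% higher and 10.4% lower for C1q/class II, 13.2% and 5.82% for Plac8/class II, and 8.8% and 18.3% for non-classical-monocyte-like cells. Of the 3 members that entered, 2, 1, 1 and 0 were higher in these states and 0 were lower in any. Areg entered with exactly 8 cells, 0 of them classical-monocyte-like, so it could not have been lower in any state. Its calls in alveolar-macrophage-like and Plac8/class II cells therefore cannot be weighed against these shares. The median difference over all 6151 genes was 0.13, 0.03, 0.11 and -0.24.

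A second description used detection alone, with a bound chosen after the values were seen. A gene was counted for a state when it was detected in at least 25% of the state's cells and in 0 of 33 classical-monocyte-like cells. Of 8002 genes detected in 3 to 40 cells, 1.81% met this in the alveolar-macrophage-like, 0.712% in the C1q/class II, 0.162% in the Plac8/class II and 1.21% in the non-classical-monocyte-like cells. Of the 8 members in that range, Vegfb and Areg met it in alveolar-macrophage-like, Igf1 in C1q/class II and Areg in Plac8/class II cells, and 0 in non-classical-monocyte-like cells. Areg was 1 of 13 genes of the whole table that met it in the Plac8/class II cluster. The bound equals the 25% share that Vegfb and Areg each had in alveolar-macrophage-like cells. These counts are therefore a description and cannot single out a member.

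In non-classical-monocyte-like cells, 5 of the 6 detections of the 9 rarer members lay in cells 2, 38 and 54, the cells with endothelial markers. These were Vegfa in cells 2 and 54, Hgf and Pdgfb in cell 54, and Igf1 in cell 38. The remaining 5 cells of the cluster held 1 detection, Hbegf in cell 83, which held S100a8 and Cxcr2 from the neutrophil list. Whether cells 2, 38 and 54 are captures of more than 1 cell was not tested.

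Detections of the 9 rarer members averaged 0.67 per cell in alveolar-macrophage-like, 1.10 in C1q/class II, 0.90 in Plac8/class II, 0.75 in non-classical-monocyte-like and 0.42 in classical-monocyte-like cells. At least 1 was held by 6 of 12, 8 of 10, 8 of 10, 4 of 8 and 10 of 33 cells. Of all 73 cells, 27 held 1, 7 held 2, cell 54 held 3 and cell 63 held 4. Cell 63 was classical-monocyte-like with 2517930 mouse fragments, and it was the highest of all cells for Hbegf, Pdgfa and Pdgfb. Depth moved with the count in part. Median mouse fragments were 1692298 in the 9 cells with 2 or more, 1806143 in the 27 cells with 1, and 1248032 in the 37 cells with none. In the order of states given above, the median number of all genes detected per cell was 2739.5, 2264.5, 2367.5, 1936 and 2174. The part of general detection in the counts of members was not tested.

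**Figure D4:**
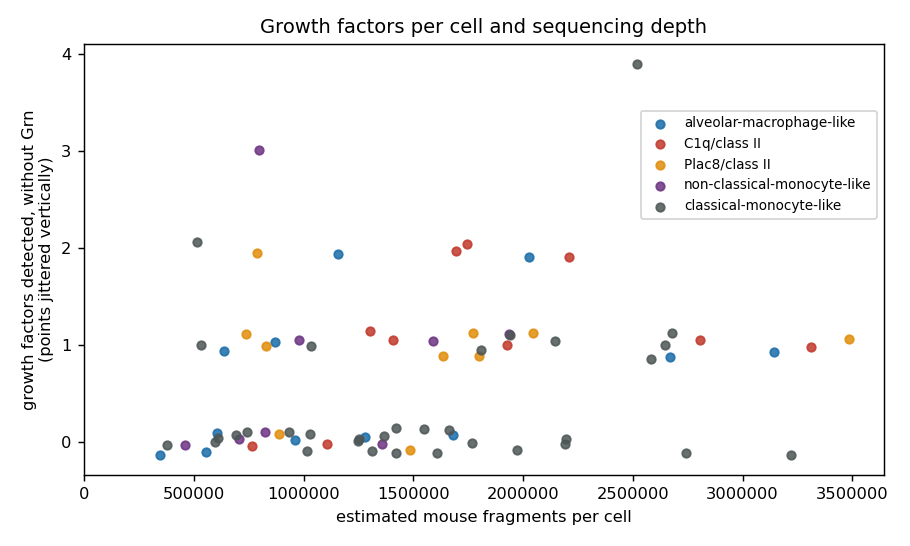
Number of the 9 rarer growth factors detected per cell (vertical axis, points moved slightly up or down) against estimated mouse fragments (horizontal axis, fragments per cell), coloured by state. Cells with none occur at depths up to 3219634 fragments, and the highest count of 4 is a classical-monocyte-like cell of 2517930 fragments.

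The ratio of the 2 deposited values of a gene, scaled fragments over FPKM, is proportional to the transcript length that the authors' tool assigned in that cell. For Grn it was constant over cells, within 0.99 to 1.01 of its median. Igf1, Hgf and Vegfa varied. The length for Igf1 was 3.15 and 3.14 times that of Grn in the C1q/class II cells 65 and 32, 1.37 times in the C1q/class II cell 15, and 1.89 times in cell 38. For Hgf it was 0.68 times in cells 13 and 20 and 1.14 to 1.18 times in the other 4 cells. Vegfa had 1.45 and 1.46 times in cells 2 and 20, 1.31 in cell 63, and 1.13 to 1.15 in the other 13 cells with any value. The other 6 members varied little, with the widest range in Vegfb, from 0.46 to 0.52. Cells with the same gene were thus assigned different lengths, estimated by the tool from 1 to 3138 fragments per value.

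**Figure D5:**
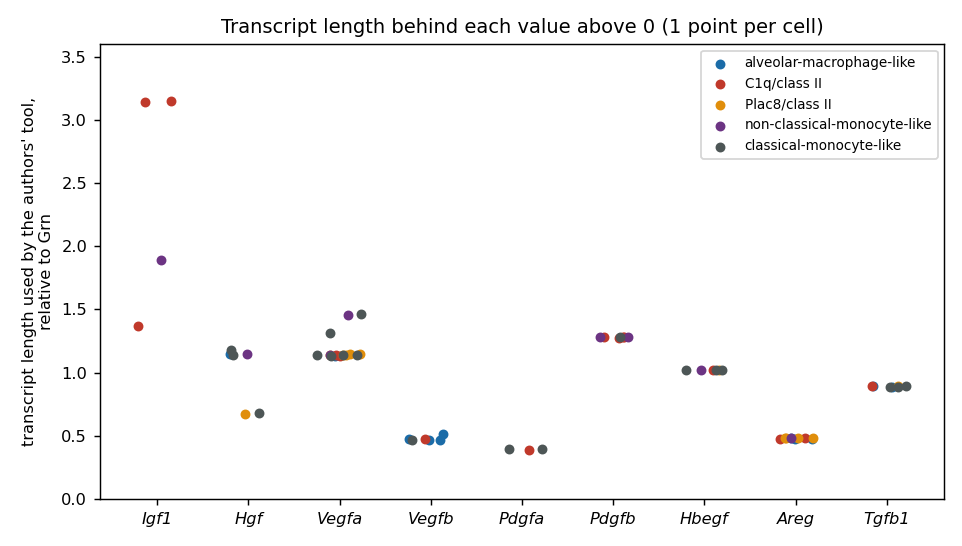
Transcript length that the authors' tool used, relative to Grn (vertical axis), for each value above 0 of the 9 rarer growth factors, each point 1 cell coloured by state. Igf1 runs from 1.37 to 3.15 and Hgf from 0.68 to 1.18, while Pdgfb, Hbegf, Areg and Tgfb1 form tight groups.

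Other genes of the same pathways were taken from lists. Their counts stand beside the shares over all 6151 genes given above, which were 19.5% higher and 11% lower in alveolar-macrophage-like, 14.2% and 10.4% in C1q/class II, 13.2% and 5.82% in Plac8/class II, and 8.8% and 18.3% in non-classical-monocyte-like cells. Of 17 other growth factors, 8 were detected in 0 cells and 3 in 8 or more. Of these 3, relative to classical-monocyte-like cells, 2 were higher by 1 or more in alveolar-macrophage-like cells, and 1, Osm, was lower by 1 or more in non-classical-monocyte-like cells, with 0 in the other 2 states. Gdf15, a stress-induced member of the TGF-beta family, reached 8 of 12 alveolar-macrophage-like cells, against 2 of 33 in the classical-monocyte-like cluster, with a difference in mean log2(FPKM + 1) of 4.39. Tnf was detected in 9 of 12 and 15 of 33, with a difference of 3.07, and Osm in 5 of 12 and 17 of 33.

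Of 16 receptors, 7 were detected in 8 or more cells, and 4 of the 7 were higher by 1 or more in the alveolar-macrophage-like cells, relative to the classical-monocyte-like cells, with 0 lower. These were Tgfbr2, in 9 of 12 and 6 of 33 cells, Tgfbr1, in 6 of 12 and 4 of 33, Sort1, in 11 of 12 and 8 of 33, and the neuropilin Nrp2, in 6 of 12 and 5 of 33. The differences were 3.39, 2.27, 2.24 and 1.63. In the C1q/class II, Plac8/class II and non-classical-monocyte-like cells 1, 0 and 2 of the 7 were higher and 0 lower. Of 8 housekeeping genes, 2 were also higher by 1 or more in alveolar-macrophage-like cells, Gapdh at 2.28 and Hprt at 2.87, with a median of 0.56 over the list, and the part of a general shift in these values was not tested.

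Of 19 genes of release, activation and binding, 12 were detected in 8 or more cells. In alveolar-macrophage-like cells 2 of these were higher and 4 lower by 1 or more, in C1q/class II cells 1 and 4, in Plac8/class II cells 0 and 2, and in non-classical-monocyte-like cells 1 and 6. Thbs1, thrombospondin 1, which releases latent TGF-beta, was lower in all 4 states than in classical-monocyte-like cells. It was detected in 0 of 12 alveolar-macrophage-like, 3 of 10 C1q/class II, 7 of 10 Plac8/class II and 3 of 8 non-classical-monocyte-like cells, against 29 of 33 classical-monocyte-like cells. The differences were -6.26, -4.56, -1.33 and -4.51. Slpi, an inhibitor of the elastase that cuts progranulin into granulins, was detected in 6 of 12, 1 of 10, 7 of 10 and 2 of 8 cells of those states, against 24 of 33, and its differences were -1.53, -5.10, -2.13 and -4.75. Plau, the urokinase gene, was detected in 5 of 10 C1q/class II cells, against 2 of 33 classical-monocyte-like cells, with a difference of 1.59. Plaur, from the same list, was detected in 5 of 10 and 31 of 33 of these cells, with a difference of -4.40. Of 9 regulators, 7 were detected in 8 or more cells, and Egr1, an early growth response factor, was the 1 regulator higher by 1 or more in each of the 4 states. Lower regulators numbered 1, 2, 0 and 4. For Egr1, detected cells were 7 of 12, 10 of 10, 6 of 10 and 5 of 8, against 15 of 33, with differences of 1.19, 2.65, 1.06 and 1.53.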

How the data were processed

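The members and gene lists were chosen with earlier results of these data known. RNA from single cells was captured on a Fluidigm C1 chip, amplified with SMARTer chemistry and made into libraries with Nextera XT, per the labels' protocols. Per the submitters' processing notes, the build was mm10 and the software comprised Cufflinks 2.2.1 and Cuffnorm, TopHat2 2.1.0 and CASAVA 1.8. Their gene annotation is not given in the sources used here. FPKM values as deposited were normalised per cell by the authors' tools. The other deposited table is a signal of fragments, scaled in each cell by a common factor in the authors' tools. Of its 100696 values of up to 20 steps, 99.6% were whole multiples within 0.1, so division by the step estimated fragments, and no count model was fitted. The 100 spike-in rows were left out of the gene rows.

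Cells were clustered (Ward, 5 clusters, Euclidean distance) on log2(FPKM + 1) of 59 markers in 6 lists, using SciPy 1.17.1 in Python 3.11.15. No doublet caller was run, since 73 chip captures are too few. Named genes were all 10 members, markers, at most 4 genes per pathway list, and the genes most like a member with rho of at least 0.5. Egfr, Met, Adam17 and the gene overlapping Grn were named after their values were seen, and Plau was also named outside this rule. Intervals are exact Clopper-Pearson at 95%. For a count of 0 the limit is 3 cells of the total. The code for differences and clustering was run on simulated data, which checks its arithmetic and not the states found here. Alternatives covered thresholds, pseudocount, scaling, depth, clustering and cells left out.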

Additional observations from a re-analysis of the deposited data

How the results depend on the processing

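No paired analysis was possible because the series holds 1 group of cells from 1 mouse. The total of 110 detections of the 10 members ran from 87 at FPKM of 10 or more to 131 at any value above 0, was 110 with every cell thinned to one depth and 104 without cells 2, 38 and 54. Single members moved by more than 1.5 times at other thresholds, with Vegfa between 6 and 16 cells, Areg between 4 and 10, Tgfb1 between 0 and 7, and Pdgfa between 1 and 3, with 1 also on thinning. The number of pairs of member and state past a difference of 1 was 7, and it became 12 with a pseudocount of 0.1, where undetected values lie farther from detected ones, and 4 with 4 clusters, where the Plac8/class II cells join the classical-monocyte-like cluster. With the other settings it ran from 6 to 9. No difference of 1 or more changed sign. For the C1q/class II cluster, the division into 6 gave 0.12 for Grn in the matched cells without Pf4. Of 73 cells, 51 kept their state when 1000 variable genes replaced the markers, and 60 to 72 did under gating, other numbers of clusters, k-means or a filter on markers. The variable genes and the gates gave no non-classical-monocyte-like state. Leaving out cells 2, 38, 48 and 54 together and dividing the C1q/class II cluster were chosen after seeing the data. With 8 to 33 cells per state from 1 mouse, differences in share below those of the intervals given were not detectable.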
